A study of Bos taurus with 24 samples.

Results

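Chaperone-high and chaperone-low muscle biopsies were compared in cows on a limited ration. A chaperone score was taken on each array as the mean deposited log2 value of HSPH1, DNAJB4 and HSPA8, read from the brightest feature of each gene. The arrays were chosen by these measured values: the score was computed on the 11 of 12 biopsy 1 arrays on which ACTA1, the skeletal muscle actin, had a deposited value of 18 or more. The 4 arrays of highest score form the chaperone-high group and the 4 of lowest score the chaperone-low group, with 3 arrays between them, out of 24 arrays in the series. Because the groups were made from values of the same arrays, the contrast at biopsy 1 is a description and carries no test.

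The muscle was the Gluteus medius, taken by biopsy needle from 12 crossbred beef cows that were picked, out of 121, as the 6 with the highest and the 6 with the lowest gain during ad libitum feeding. All cows had been held for 112 days on a ration that supplied 120 kcal of metabolizable energy for each kg of metabolic body weight and were biopsied on day 105, then were offered feed freely for 112 days and were biopsied again on day 49 of that period. Labels call the biopsies 1 and 2 but tie neither to a feeding period, so they are read here in the order of the protocol. Each cow gave 1 array per biopsy, so no array has a technical repeat, and the number of arrays limits the precision.

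Chaperones are proteins that hold, fold and refold other proteins. HSPA8 is the constitutive HSP70, DNAJB4 is a J-domain co-chaperone that delivers clients to HSP70, and HSPH1 is an HSP110 protein that exchanges the nucleotide on HSP70. In stressed cells the heat shock factors switch on many chaperone genes together, and in muscle these proteins also guard the contractile filaments during work and stretch.

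The chaperone-high arrays were those of high gain cows 2, 1, 5 and 3, with scores of 16.86, 15.88, 14.75 and 14.13. The chaperone-low arrays were those of high gain cows 4 and 6 and low gain cows 3 and 2, with scores of 13.45, 13.35, 13.10 and 13.08. All 4 chaperone-high cows were therefore high gain cows, against 2 high gain and 2 low gain cows in the chaperone-low group. The limits of the groups were narrow: the array next below the chaperone-high group, from low gain cow 5, had a score of 14.04, only 0.08 under its lowest member, and the array next above the chaperone-low group, from low gain cow 6, had a score of 13.80. The array left out, from low gain cow 4, had an ACTA1 value of 14.51 and an ADIPOQ value of 17.98, ADIPOQ being the adipocyte hormone adiponectin. The other 11 arrays had ACTA1 values of at least 19.75, which is near the top of the scale.

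HSPH1 was 14.42, 13.37, 11.80 and 10.36 on the chaperone-high arrays, against 10.19, 9.77, 9.51 and 9.43 on the chaperone-low arrays. DNAJB4 was 18.21, 16.67, 15.36 and 15.07 on the chaperone-high arrays, against 13.33, 12.87, 13.29 and 12.88 on the chaperone-low arrays. HSPA8 was 17.96, 17.58, 17.08 and 16.95 on the chaperone-high arrays, against 16.83, 17.43, 16.48 and 16.94 on the chaperone-low arrays. The groups were apart for HSPH1 and DNAJB4 and overlapped for HSPA8, and the mean differences were 2.76, 3.24 and 0.47 on the log2 scale, where 1 is a doubling. HSPH1 averaged 12.5 ± 1.78 on the chaperone-high and 9.73 ± 0.34 on the chaperone-low arrays (SD, n = 4 each), so most of its spread lay within the chaperone-high group. DNAJB4 alone would have picked the same 8 arrays, HSPH1 alone 3 of the 4 chaperone-high and all 4 chaperone-low arrays, and HSPA8 alone 2 of 4 in each group. The arrays of high gain cows 2 and 1 stood above the other 9 in the score.

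**Figure D1:**
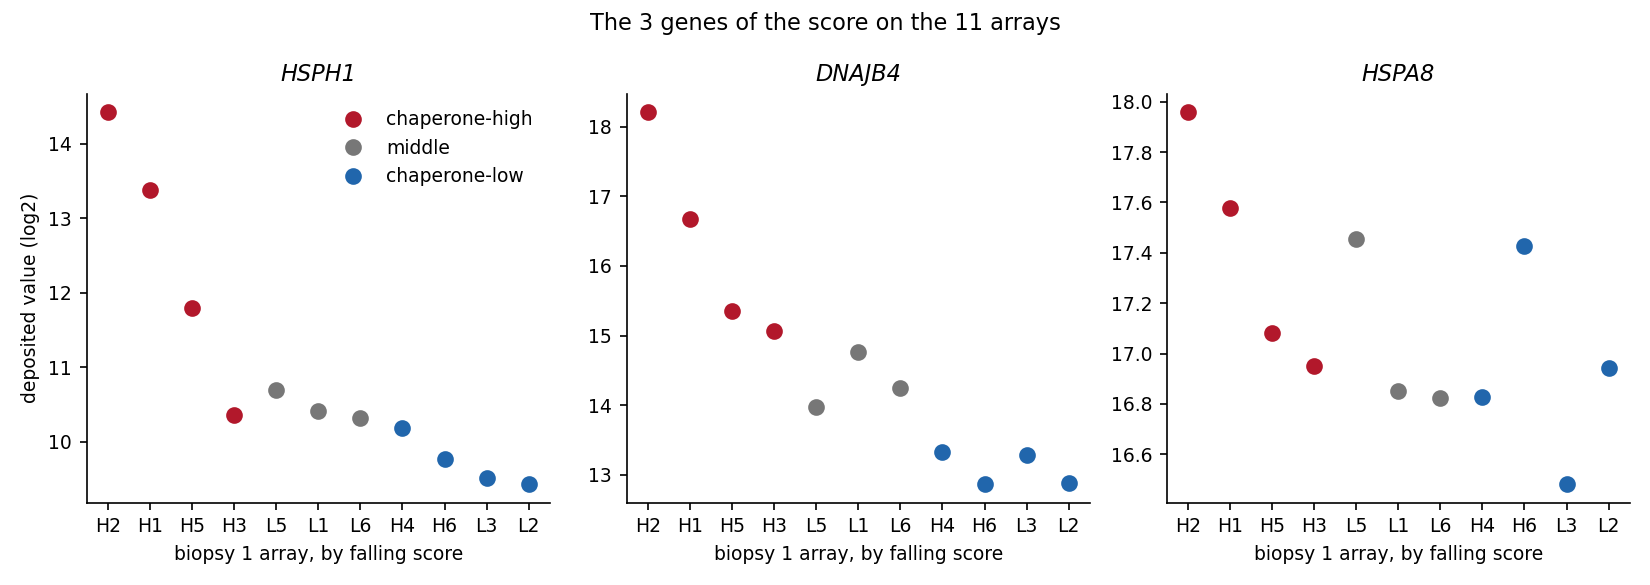
Deposited log2 values of the 3 genes of the score (vertical axes) on the 11 biopsy 1 arrays with ACTA1 of 18 or more, ordered by falling score; H and L are high gain and low gain cows, 1 point per array. HSPH1 and DNAJB4 separate the groups, and in HSPA8 the chaperone-low array of high gain cow 6, at 17.43, lies above 2 of the chaperone-high arrays.

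Among the 14195 other genes, 120 were higher by at least 1 on the log2 scale on the chaperone-high arrays with no overlap between the groups, which is 0.845% of the genes compared. In the other direction 22 genes were lower by at least 1 with no overlap, which is 0.155%. Without the condition on overlap, 324 genes (2.28%) were higher and 55 (0.387%) lower by at least 1, and without the condition on size, 495 genes (3.49%) were higher and 454 (3.20%) lower with no overlap. Genes that meet both conditions are called set apart below. A positive difference of any size was found in 6441 of the 14195 genes. The higher ones had a median difference of 1.41 and the lower ones of -1.16, and 14 were higher by at least 2. The 3 arrays of middle score, all from low gain cows, had a mean between the 2 group means in 108 of the 120 higher and 19 of the 22 lower genes. Since these genes were picked for a gap between the groups, such counts are largely given by the choice. They do not show that the genes are graded with the score.

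A pair of arrays carried much of the size of these differences. Of the 120 higher genes, 72 were highest on the array of high gain cow 2 and 37 on that of high gain cow 1, against 7 for high gain cow 5 and 4 for high gain cow 3. When the arrays of high gain cows 2 and 1 were left out, 55 of the 120 higher and 11 of the 22 lower genes still differed by at least 1. Among high gain cows alone, which sets 4 chaperone-high arrays against 2 chaperone-low arrays, 99 of the higher and 13 of the lower genes differed by at least 1. These arrays were among those on which the genes were picked, so the part of gain class was not tested by these counts.

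Among the genes set apart, the largest difference upward was that of ABRA, an actin-binding protein of striated muscle. ABRA was 17.00, 12.57, 14.13 and 10.79 on the chaperone-high arrays, against 9.78, 10.34, 10.38 and 10.55 on the chaperone-low arrays, a mean difference of 3.36. The array of high gain cow 2 lay far above the rest and that of high gain cow 3 only just above the chaperone-low arrays. CSRP3, the muscle LIM protein of the Z-disc, was 18.75, 18.81, 17.16 and 16.74 on the chaperone-high arrays, against 15.37, 14.98, 15.67 and 12.20 on the chaperone-low arrays. Without the 2 arrays of highest score the difference of 3.31 for CSRP3 was 2.40, and that for ABRA was 2.20. On the middle arrays of low gain cows 5, 1 and 6 CSRP3 was 13.90, 16.94 and 17.73.

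Other muscle genes were set apart in the same direction. LMOD2, leiomodin 2, which lengthens actin filaments at their pointed ends, was 16.12, 16.87, 16.58 and 16.54 on the chaperone-high arrays, against 14.62, 14.80, 15.51 and 14.60 on the chaperone-low arrays. Its difference of 1.65 rested on no single array, and was 1.68 without the 2 arrays of highest score. High LMOD2 was not particular to the chaperone-high arrays. On the middle arrays of low gain cows 5, 1 and 6 it was 14.57, 17.14 and 16.68. LMCD1, a LIM domain cofactor, was 16.35, 14.92, 13.82 and 13.86 on the chaperone-high arrays, against 12.64, 13.60, 13.03 and 12.52 on the chaperone-low arrays, a difference of 1.79. LMCD1 was highest on the arrays of high gain cows 2 and 1.

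Of the 21 genes on the stretch and sarcomere repair list, 4 were set apart upward, against 0.845% of all genes, and none downward. A positive difference was found in 17, and the list median was 0.32 against -0.03 over all genes. XIRP1, a gene chosen after its values were seen and coding for an actin-binding protein of damaged sarcomeres, overlapped between the groups: it was 18.12, 14.72, 13.78 and 11.01 on the chaperone-high arrays, against 11.09, 12.13, 11.51 and 10.76 on the chaperone-low arrays. Its mean difference of 3.04 came mostly from the array of high gain cow 2.

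Immediate early genes code for transcription factors and regulators that respond to a stimulus without new protein synthesis. NR4A3, an orphan nuclear receptor, was 13.27, 9.85, 12.41 and 10.16 on the chaperone-high arrays, against 8.90, 7.57, 9.34 and 8.67 on the chaperone-low arrays, a difference of 2.80. ATF3, a stress-induced bZIP factor, was 13.69, 10.64, 10.39 and 9.21 on the chaperone-high arrays, against 8.78, 8.28, 8.80 and 8.65 on the chaperone-low arrays. The ATF3 difference of 2.35 was 1.17 without the 2 arrays of highest score, while that of NR4A3 was 2.66. DUSP1, a phosphatase of MAP kinases, was 16.88, 16.29, 17.34 and 16.49 on the chaperone-high arrays, against 14.85, 15.40, 16.16 and 14.60 on the chaperone-low arrays, a difference of 1.5. DUSP1 was high on all 4 chaperone-high arrays, with the highest value on that of high gain cow 5. It was about as high on the middle arrays of low gain cows 5, 1 and 6, at 16.59, 17.09 and 16.01.

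The immediate early list as a whole did not follow the score step by step. Of its 22 genes tested, 3 were set apart upward, against 0.845% of all genes, and 18 had a positive difference. The list median was 0.76, which was 0.65 without the 2 arrays of highest score. FOS and JUN, chosen after their values were seen, overlapped between the groups. FOS was 14.73, 8.89, 14.88 and 10.72 on the chaperone-high arrays, against 9.68, 10.57, 11.78 and 8.65 on the chaperone-low arrays. JUN was 14.88, 14.06, 15.26 and 13.32 on the chaperone-high arrays, against 12.30, 12.24, 13.34 and 11.85 on the chaperone-low arrays. High FOS was thus a feature of the arrays of high gain cows 2 and 5, and on the array of high gain cow 1, second by score, FOS was below 3 of the chaperone-low arrays.

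The chaperone families beyond the score genes were higher in part. HSPA4, another HSP110 protein, was 15.09, 14.00, 12.76 and 12.52 on the chaperone-high arrays, against 12.35, 11.86, 11.76 and 11.33 on the chaperone-low arrays. Its difference of 1.77 shrank to 0.82 without the 2 arrays of highest score. CCT2, a subunit of the ring-shaped chaperonin TRiC that folds actin and tubulin, was 13.77, 13.11, 12.67 and 12.30 on the chaperone-high arrays, against 12.30, 11.99, 11.55 and 11.62 on the chaperone-low arrays, a difference of 1.10. For CCT2 the lowest chaperone-high and the highest chaperone-low values met. SERPINH1, the collagen chaperone HSP47, was 10.67, 9.93, 9.22 and 9.58 on the chaperone-high arrays, against 8.95, 8.26, 9.21 and 8.24 on the chaperone-low arrays, a difference of 1.19. In SERPINH1, too, the gap between the groups was small. With DCN, a fibroblast marker described below, as a covariate, the differences were 0.37 for HSPA4, 0.39 for CCT2 and 0.40 for SERPINH1, all under the limit of 1.

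HSF2, a heat shock transcription factor, was 12.83, 12.29, 11.73 and 11.18 on the chaperone-high arrays, against 11.06, 10.52, 10.48 and 10.56 on the chaperone-low arrays, a difference of 1.35. Across the chaperone-high arrays HSF2 kept the order of the score, and with DCN as a covariate its difference was 0.63. HSF1, the main heat-activated factor, which is controlled mostly at the level of its protein, had a difference of -0.16. It was read after its values were seen, as were the following chaperone genes other than DNAJA4, FKBP5 and CHORDC1.

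Most chaperone genes with large differences overlapped between the groups. DNAJA4, a J-domain protein, was 13.13, 13.13, 10.74 and 11.76 on the chaperone-high arrays, against 10.97, 10.85, 10.01 and 10.16 on the chaperone-low arrays, a difference of 1.69. BAG3, which links HSP70 to the disposal of damaged filamin at the Z-disc, was 16.13, 15.08, 13.46 and 13.48 on the chaperone-high arrays, against 12.76, 13.70, 13.06 and 12.60 on the chaperone-low arrays, a difference of 1.51. HSP90AA1, the inducible HSP90, was 15.50, 15.63, 14.63 and 14.56 on the chaperone-high arrays, against 14.03, 14.34, 14.03 and 13.99 on the chaperone-low arrays. Its groups were apart, at a difference of 0.98, just under the limit of 1. In DNAJA4 and BAG3 the pair of arrays of highest score was above the other 6. With DCN as a covariate the difference of DNAJA4 was -0.06.

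CHORDC1 and FKBP5, partners of HSP90, had differences of 1.13 and 2.52 with overlapping groups, and of 0.22 and 3.66 with DCN as a covariate. FKBP5 is also a target of the glucocorticoid receptor, and it was highest on the array of high gain cow 5, at 15.56. The small heat shock proteins CRYAB and HSPB7 had differences of 1.24 and 1.36, also with overlap. UNC45B, the myosin chaperone, went the other way without overlap, at 12.58, 12.39, 12.59 and 12.56 on the chaperone-high arrays, against 12.75, 13.65, 13.67 and 13.64 on the chaperone-low arrays. The difference for UNC45B was -0.90.

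By list, 7 of 8 genes of the HSP70 and HSP110 list had a positive difference, with a median of 0.13. Among the 15 DNAJ co-chaperones 14 were positive (median 0.31), among the 16 genes of the HSP90 list 13 (median 0.40), and among the 11 chaperonin genes 10 (median 0.53). The 14 small heat shock and BAG proteins had 10 positive members and a median of 0.56. Over all genes 6441 of 14195 differences were positive. The HSP70 and HSP110, the chaperonin, and the small heat shock and BAG lists each had 1 member set apart upward, and the DNAJ and HSP90 lists had none. The share set apart upward over all genes was 0.845%. Without the 2 arrays of highest score the HSP90, chaperonin, and small heat shock and BAG medians were 0.15, 0.21 and 0.18, and those of the HSP70 and HSP110 and the DNAJ lists were 0.13 and 0.26. The small heat shock and BAG list had its highest levels on the arrays of high gain cows 2 and 1, at 14.00 and 13.79. The chaperonin list stood highest on that of high gain cow 2, at 12.89, against 12.31 for high gain cow 1. The HSP90 list was also highest on high gain cow 2, at 12.57, followed by high gain cow 5 at 12.24 and high gain cow 1 at 12.13. The unfolded protein and integrated stress list had 12 of 17 positive members, a median of 0.36 and no member set apart.

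**Figure D2:**
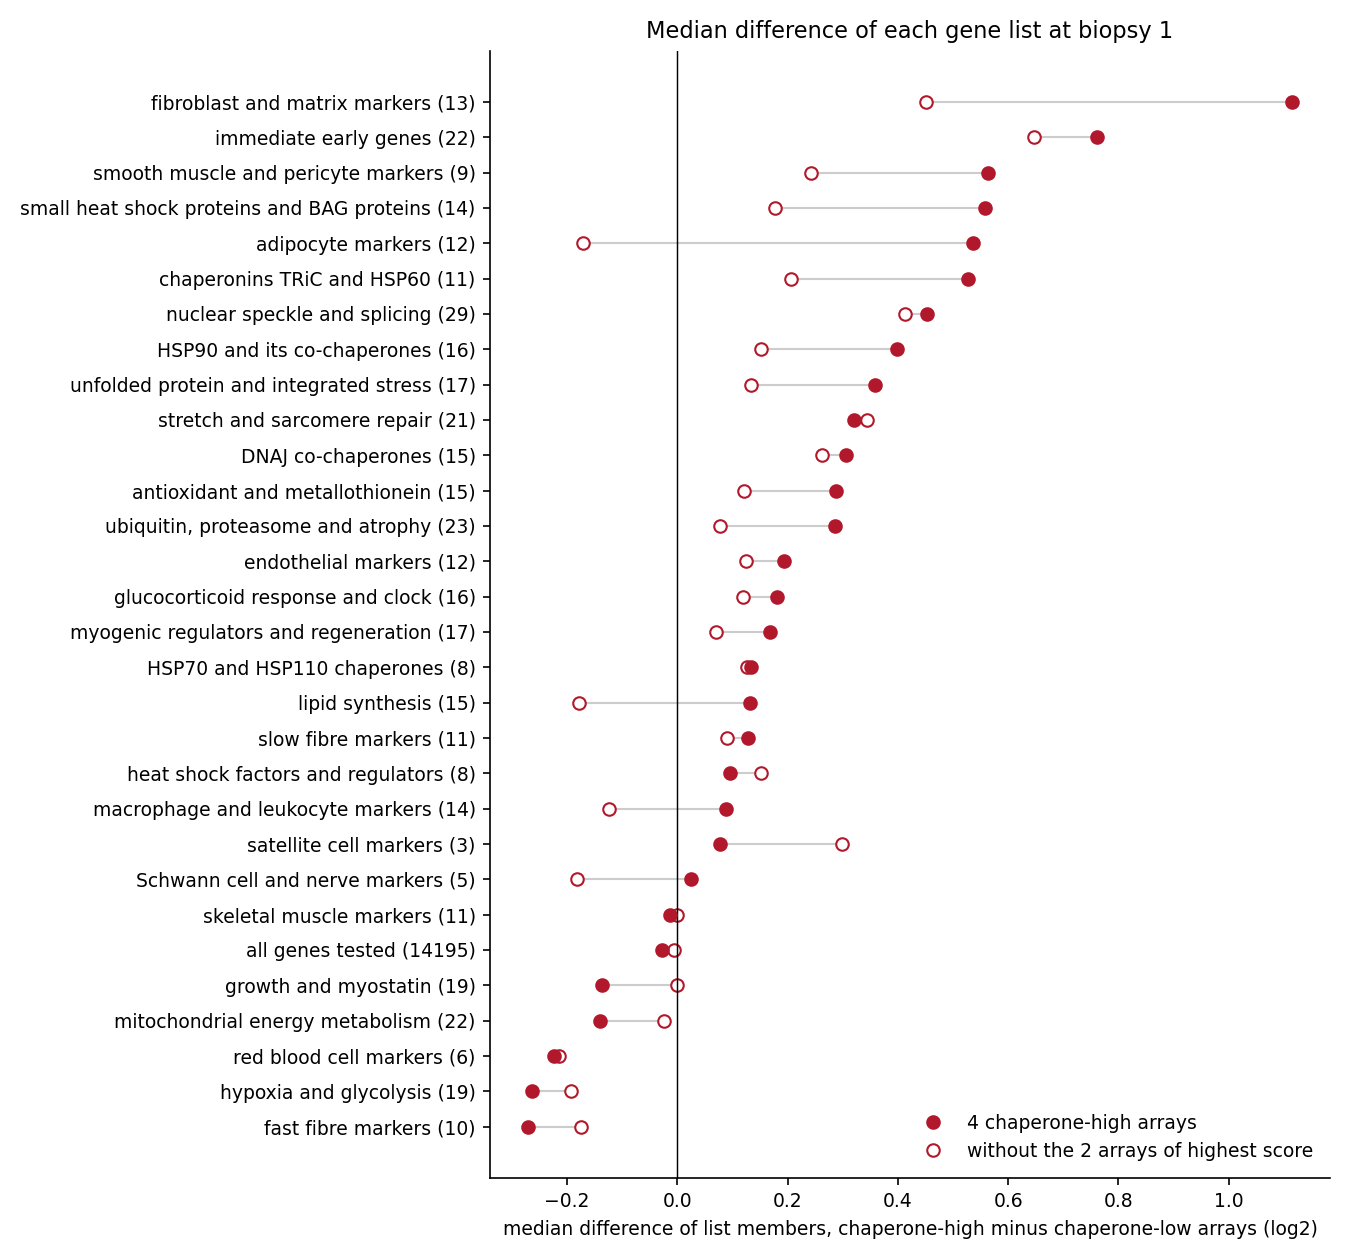
Median difference, chaperone-high minus chaperone-low arrays at biopsy 1 (log2, horizontal axis), of the tested members of each gene list reported, with the number of members in brackets; filled points use all 4 chaperone-high arrays and open points leave out the 2 of highest score. Fibroblast and matrix markers have the highest median, 1.11, which is 0.45 without those 2 arrays, while the immediate early list moves only to 0.65.

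Genes of metabolism and of other regulators were also among those set apart. GLUL, glutamine synthetase, was 17.75, 17.18, 15.89 and 14.17 on the chaperone-high arrays, against 13.98, 13.86, 13.47 and 14.11 on the chaperone-low arrays, a difference of 2.40. NFIL3, a bZIP repressor tied to the circadian clock, was 14.28, 8.94, 9.76 and 8.46 on the chaperone-high arrays, against 6.82, 7.51, 7.81 and 7.37 on the chaperone-low arrays, a difference of 2.98. GABARAPL1, a protein of autophagosome membranes, was 12.08, 13.00, 12.87 and 11.66 on the chaperone-high arrays, against 10.55, 10.59, 10.79 and 9.17 on the chaperone-low arrays, a difference of 2.13. GLUL graded down the chaperone-high group to the edge of the chaperone-low group, NFIL3 stood out on 1 array, and GABARAPL1 was high on all 4. On the middle arrays of low gain cows 5, 1 and 6 GABARAPL1 was 10.36, 11.92 and 11.83.

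VGLL2, a muscle cofactor of TEAD factors, differed by 2.23, and GPAT3, an acyltransferase of glycerolipid synthesis, by 2.22. KLHL34, a kelch-like protein, differed by 2.08. PDK4, which holds back the oxidation of glucose and was chosen after its values were seen, had the largest mean difference of the genes given here, 4.14, but with overlap. PDK4 was 19.25, 18.54, 18.71 and 14.60 on the chaperone-high arrays, against 13.88, 11.21, 14.71 and 14.73 on the chaperone-low arrays, so that high gain cow 3 lay with the chaperone-low cows. Of the 29 nuclear speckle and splicing genes, 26 had a positive difference (median 0.45). Upward, 2 were set apart, against 0.845% of all genes, RSRC2 by 1.31 and DDX5 by 1.01. DDX5 is an RNA helicase of splicing and transcription, and RSRC2 an arginine and serine rich protein.

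Markers of connective tissue were higher on the chaperone-high arrays. FBN1, fibrillin 1 of the microfibrils, was 11.77, 12.30, 9.17 and 12.70 on the chaperone-high arrays, against 9.08, 9.07, 8.86 and 8.81 on the chaperone-low arrays, a difference of 2.53. On the middle arrays of low gain cows 5, 1 and 6 FBN1 was 10.31, 12.87 and 10.22. CCN2, connective tissue growth factor, was 10.34, 11.42, 13.16 and 9.59 on the chaperone-high arrays, against 9.45, 8.0, 9.08 and 8.61 on the chaperone-low arrays, a difference of 2.34. High CCN2 and low FBN1 met on the array of high gain cow 5, so these genes did not vary as a block. FSTL1, a secreted glycoprotein, differed by 1.97 and DPT, dermatopontin of the matrix, by 1.55.

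All 13 fibroblast and matrix markers had a positive difference, with a median of 1.11, and 2 were set apart upward, against 0.845% of all genes. The mean level of the list was 9.80 to 12.17 on the chaperone-high arrays, against 9.31 to 10.42 on the chaperone-low arrays. On the middle arrays it was 9.73 to 11.67, nearly the range of the chaperone-high arrays. DCN, decorin, a fibroblast marker chosen after its values were seen, was 15.64, 15.58, 13.45 and 14.85 on the chaperone-high arrays, against 13.93, 13.00, 12.86 and 12.95 on the chaperone-low arrays. With DCN as a covariate, 41 of the 120 higher and 7 of the 22 lower genes kept a difference of at least 1. The score genes HSPH1, DNAJB4 and HSPA8 then differed by 1.17, 1.78 and 0.03. LMCD1, FBN1 and KLHL34 fell to 0.73, 0.69 and 0.62, while ABRA, NR4A3 and LMOD2 stood at 3.04, 3.20 and 1.85. DCN itself nearly separated the groups, so as a covariate it stands in part for the group. In bulk samples like these, fewer cells of a type and less RNA per cell cannot be told apart.

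The other marker lists were less far from 0. The 12 adipocyte markers had a median of 0.54, with list levels of 8.91 to 11.19 on the chaperone-high arrays, against 8.69 to 10.15 on the chaperone-low arrays, and without the 2 arrays of highest score the median was -0.17. ADIPOQ itself was 14.89, 14.69, 9.92 and 12.41 on the chaperone-high arrays, against 13.47, 8.20, 11.88 and 9.66 on the chaperone-low arrays. The 9 smooth muscle and pericyte markers had a median of 0.56, with levels of 9.21 to 11.72 on the chaperone-high arrays, against 8.92 to 10.81 on the chaperone-low arrays. Endothelial markers (12 genes, median 0.19), leukocyte markers (14 genes, 0.09), Schwann cell markers (5 genes, 0.03) and satellite cell markers (3 genes, 0.08) had medians near 0, and red blood cell markers (6 genes) had a median of -0.22. Single members lay farther off, with overlapping groups. SDC4 of the satellite cell list differed by 2.69, and HBB and HBA of the red blood cell list by -1.55 and -1.03. No list had all its members at the dim end of the scale, and the part of other cell types in the differences above was not tested beyond these values.

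Muscle fibre lists had medians near 0, with wider ranges among their members. The 11 skeletal muscle markers had a median of -0.01 and levels of 19.42 to 19.61 on the chaperone-high arrays, against 19.57 to 19.66 on the chaperone-low arrays, where many features are near saturation. Slow fibre markers had a median of 0.13 over 11 genes, with differences of -0.85 to 1.47, the highest being that of MYOZ2. Fast fibre markers had a median of -0.27 over 10 genes with 1 positive, and the lowest difference was that of ACTN3, an actinin of fast fibres, at -1.01. No member of the 3 lists was set apart.

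The 22 genes set apart downward were led by CILP, a matrix protein that binds growth factors. CILP was 7.64, 8.26, 9.38 and 8.47 on the chaperone-high arrays, against 9.71, 11.64, 10.03 and 11.08 on the chaperone-low arrays, a difference of -2.18. With DCN as a covariate its difference was -0.92, under the limit of 1 in size.

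Linker histone genes followed. H1-4 was 9.45, 8.99, 10.17 and 10.09 on the chaperone-high arrays, against 11.49, 12.34, 11.41 and 12.01 on the chaperone-low arrays, a difference of -2.13. H1-3 was 5.95, 7.02, 8.08 and 7.20 on the chaperone-high arrays, against 9.09, 9.43, 8.17 and 8.32 on the chaperone-low arrays, a difference of -1.69. H1-2 was 6.81, 6.95, 7.19 and 7.42 on the chaperone-high arrays, against 8.53, 9.17, 8.34 and 9.01 on the chaperone-low arrays, a difference of -1.67. The 4 chaperone-high arrays lay together and at least 1 below every chaperone-low array for H1-4, and the gap for H1-3 was narrow. These proteins bind DNA between nucleosomes, and the transcripts of such histone genes mostly lack a poly(A) tail. Of 25 histone genes tested, taken by symbol after these values were seen, 4 were lower with no overlap at any size and none was higher. Over all genes these shares were 3.20% and 3.49%. The median of the 25 was -0.06.

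PRKAG3, the regulatory subunit of AMP kinase found in glycolytic muscle, was 10.97, 10.32, 11.27 and 11.29 on the chaperone-high arrays, against 11.58, 12.61, 12.59 and 12.57 on the chaperone-low arrays, a difference of -1.38. MYOZ3, a Z-disc protein of fast fibres, was 13.92, 12.17, 13.44 and 13.45 on the chaperone-high arrays, against 14.14, 14.53, 14.66 and 14.32 on the chaperone-low arrays, a difference of -1.16. SLC16A3, the exporter of lactate, differed by -1.39. With DCN as a covariate the difference was -0.65 for PRKAG3 and -0.34 for SLC16A3. The hypoxia and glycolysis list had a median of -0.26 with 7 of 19 members positive and no member set apart.

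NR1D1, the clock repressor REV-ERB alpha, was 7.75, 7.57, 7.90 and 8.31 on the chaperone-high arrays, against 9.01, 9.57, 8.76 and 8.63 on the chaperone-low arrays, a difference of -1.11. NFIL3, whose gene NR1D1 is known from mouse to repress, was thus set apart in the opposite direction. Further genes set apart downward included ASB16, ASB14, CHN1, PDE4C and CD82, with differences of -1.53, -1.05, -1.38, -1.23 and -1.17. ASB proteins are parts of ubiquitin ligases, CHN1 is a Rac GTPase activating protein, PDE4C breaks down cyclic AMP and CD82 is a tetraspanin. FBXO32, the atrophy ligase atrogin-1, and MSTN, myostatin, differed by -1.59 and -1.63 with overlapping groups; FBXO32 was chosen after its values were seen.

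**Figure D3:**
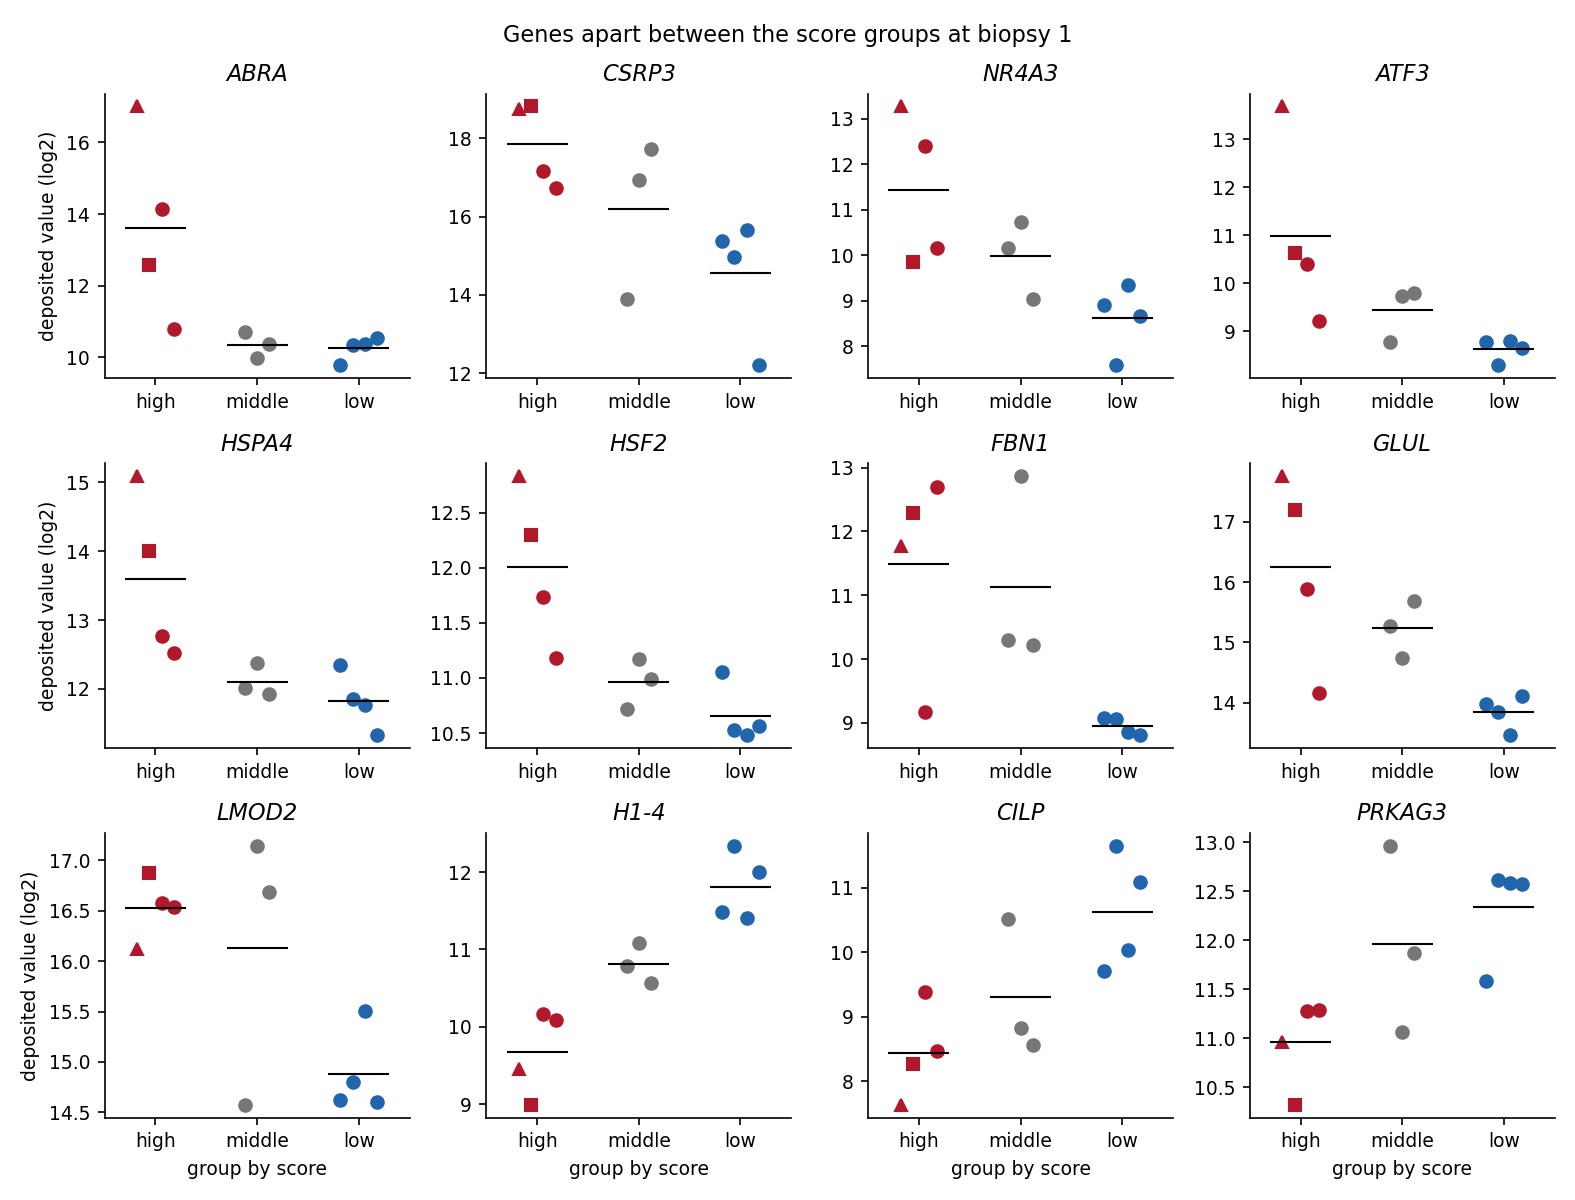
Deposited log2 values (vertical axes) of 12 genes on the 4 chaperone-high, 3 middle and 4 chaperone-low arrays of biopsy 1, with 1 point per array and lines at group means; the triangle is high gain cow 2 and the square high gain cow 1. ABRA and ATF3 are highest on the array of high gain cow 2, LMOD2 is level across the chaperone-high arrays, and the H1-4 points of the middle arrays fall between the groups.

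Gain class comes from the labels and was not used in forming the score. Across the 11 arrays, 6 from high gain and 5 from low gain cows, HSPH1 was 1.57 ± 0.75 (SE) higher, DNAJB4 1.42 ± 0.80 higher and HSPA8 0.39 ± 0.21 higher in high gain cows. None of the 3 passed limma's test, with adjusted p of 0.654, 0.676 and 0.669. Over the 14198 genes in the test, 0 (0%) passed at an adjusted p under 0.05, and 1084 (7.63%) had an unadjusted p under 0.05. The lowest adjusted p was 0.651.

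The second biopsy gives arrays that had no part in the choice of groups. There the score was less spread, with an SD of 0.46 over 12 arrays against 1.19 over the 11 arrays of biopsy 1, and a range of 12.26 to 14.14. The array of lowest score, from high gain cow 4, was also rich in adipocyte transcripts: its ADIPOQ value was 18.17 and its mean over adipocyte markers 14.15, against 8.41 to 12.31 on the other arrays. List counts and the slopes and differences of the leading genes are given below with that array and again without it, a choice made after the data were seen.

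A slope of each gene on the score was fitted over the 12 arrays with limma. No gene (0%) had an adjusted p under 0.05, the lowest being 0.0698, while 2774 genes (19.5%) had an unadjusted p under 0.05, 1252 upward (8.82%) and 1522 downward (10.7%). Without high gain cow 4 these were 259 upward (1.82%) and 191 downward (1.35%). The count of adjusted calls turned on other arrays as well: without high gain cow 1, 492 genes sloped upward and 958 downward at an adjusted p under 0.05, and with gain class as a covariate these were 222 and 733. Both of those fits hold the array of high gain cow 4.

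The smallest p among upward slopes were those of DUSP29, a dual specificity phosphatase, and RGS1, a regulator of G protein signalling, which sloped by 0.91 ± 0.15 and 0.90 ± 0.15, and by 0.66 and 0.80 without high gain cow 4. Of the 10 named upward slopes, 3 were those of the immediate early genes BTG2, NR4A1 and JUNB. At biopsy 1 these 3 had differed by -0.28, -0.96 and 0.35 between the groups, and DUSP29 and RGS1 by -0.74 and 0.48. BTG2, an antiproliferative gene of this class, was highest on the array of low gain cow 1, at 16.32, and lowest on that of high gain cow 4, at 11.33. It sloped by 2.75 ± 0.47 (SE) log2 units per unit of score, with an adjusted p of 0.0698, and by 3.39 without high gain cow 4. NR4A1, the nuclear receptor Nur77, sloped by 2.34 ± 0.39 and by 2.19 without that array. JUNB, a subunit of AP-1, sloped by 1.22 ± 0.21 and by 1.74 without it. For BTG2 and JUNB the slope was therefore steeper without the fat-rich array.

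Of the 22 immediate early genes, 13 sloped upward at an unadjusted p under 0.05 and 0 downward, with a median slope of 0.91, against 0.03 over all genes. Without high gain cow 4 there were 9 upward and 0 downward, with a median of 0.94. Over all genes the upward share was 8.82%, and 1.82% without that array. FOS, chosen after its values were seen, sloped by 3.66 ± 0.76, and by 4.56 without that array. NR4A3 and ATF3, which were set apart at biopsy 1, sloped by 2.37 ± 0.74 and 1.93 ± 0.64, with adjusted p of 0.109 and 0.125. These slopes were 3.33 and 2.42 without high gain cow 4. Low gain cows 1, 4 and 5 had the highest list levels at biopsy 2, at 11.45, 10.76 and 10.73, and high gain cow 4 the lowest, at 9.11.

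Sarcomere genes sloped upward on all 12 arrays and less so without high gain cow 4. MYOM2, a protein of the M-band, sloped by 1.46 ± 0.25 (adjusted p of 0.0698), and NEXN, an actin-binding Z-disc protein, by 1.22 ± 0.22 (adjusted p of 0.0800). MYOM2 sloped by 1.26 and NEXN by 0.84 without high gain cow 4. ABRA sloped by 1.84 ± 0.42, with an adjusted p of 0.0895, and by 2.03 without it. Of the 21 stretch and sarcomere repair genes, 13 sloped upward at an unadjusted p under 0.05, and 4 without high gain cow 4, with median slopes of 0.82 and 0.41. The upward shares over all genes were 8.82% and 1.82%.

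In the slow fibre, lipid synthesis and matrix lists the counts, and by varying amounts the medians, were smaller in size without high gain cow 4. Not every list went this way. Nuclear speckle and splicing genes sloped upward at an unadjusted p under 0.05 in 1 of 29 with that array and in 4 without it. Their median slopes were -0.11 and 0.16. Slow fibre markers sloped upward in 7 of 11 genes at an unadjusted p under 0.05 with that array and in 0 without it, with medians of 1.44 and 0.58 and with 10 and 9 positive slopes. Lipid synthesis genes sloped downward in 11 of 15 with it and in 0 without it, with medians of -2.58 and -0.30. Fibroblast and matrix markers sloped downward in 9 of 13 with it and in 0 without it, with medians of -1.26 and -0.82. For matrix markers 0 of 13 slopes were positive with that array and 1 of 13 without it, whereas all 13 differences were positive at biopsy 1. Over all genes 8.82% sloped upward with that array and 1.82% without it, and 10.7% and 1.35% downward.

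Among the downward slopes, JUP, plakoglobin of cell junctions, sloped by -1.19 ± 0.18 and GSTA4, a glutathione transferase, by -1.37 ± 0.22, both with an adjusted p of 0.0698. JUP was 11.24 and GSTA4 14.05 on the array of high gain cow 4, the highest value of each. On the other 11 arrays JUP was 9.06 to 10.28 and GSTA4 11.28 to 12.41, and without high gain cow 4 the slopes were -0.83 and -0.89.

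Chaperone genes sloped upward in part. HSPA4 sloped by 0.69 ± 0.16 (adjusted p of 0.0895), and by 0.66 without high gain cow 4. Among the HSP90 list 7 of 16, among the small heat shock and BAG list 7 of 14 and among the DNAJ list 6 of 15 sloped upward at an unadjusted p under 0.05, and without high gain cow 4 these were 2, 0 and 2. Of the 120 genes set apart upward at biopsy 1, 34 sloped upward and 13 downward at an unadjusted p under 0.05, with a median slope of 0.19, and without high gain cow 4 the counts were 22 and 2, with a median of 0.25. Of the 22 set apart downward, 1 sloped upward and 0 downward, and without that array 0 and 0. Over all genes the shares at this limit were 8.82% upward and 10.7% downward. Without that array they were 1.82% and 1.35%. The 13 downward among the 120 were thus near the share of all genes.

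**Figure D4:**
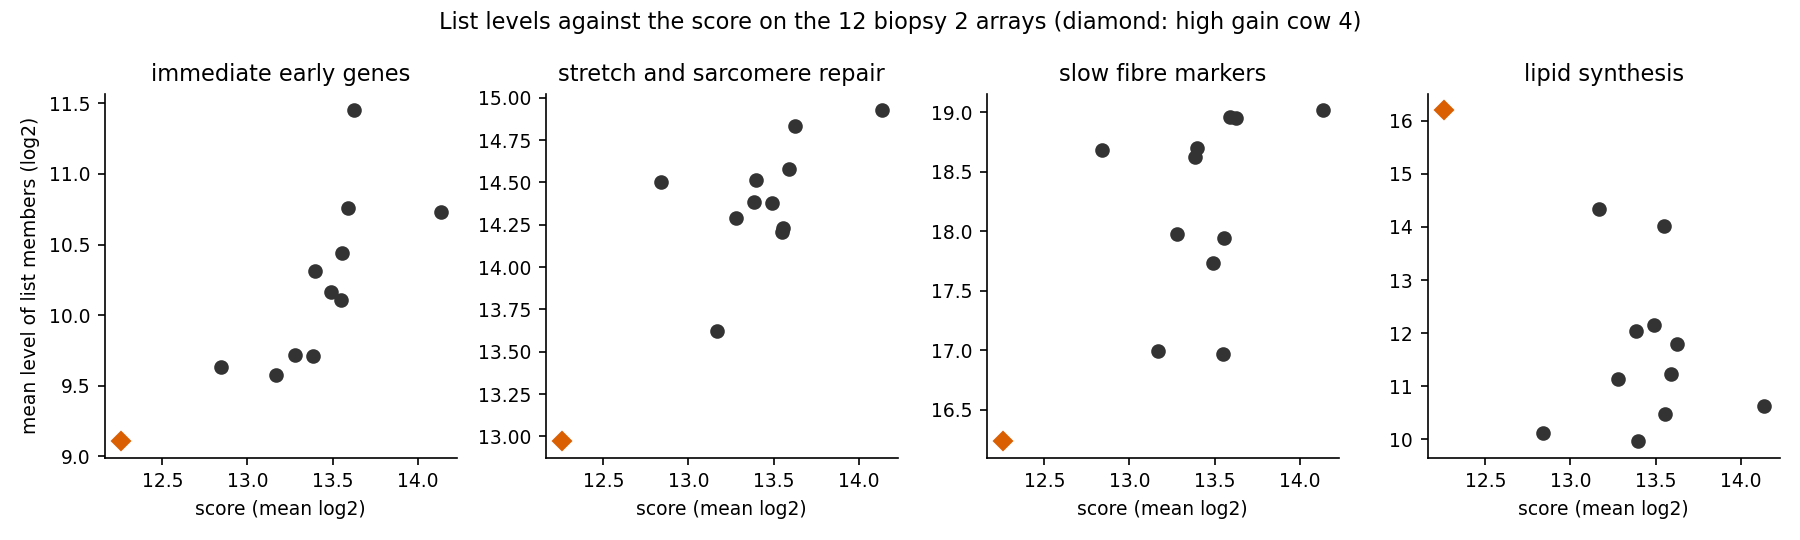
Mean log2 level of the members of 4 gene lists (vertical axes) against the chaperone score (horizontal axes) on the 12 arrays of biopsy 2, 1 point per array; the diamond is high gain cow 4. The immediate early list climbs with the score among the other arrays too, while the levels of slow fibre and lipid synthesis genes are most extreme on the diamond and scattered on the rest.

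The same cows were then compared at biopsy 2 by the group they had at biopsy 1, 4 chaperone-high against 4 chaperone-low. All 4 chaperone-high cows were high gain cows, against 2 of the 4 chaperone-low cows, and the fit held no term for gain class. Group and gain class can therefore not be fully told apart here. Leaving out high gain cow 4 makes the groups more unequal in gain class. DNAJB4 was 12.74, 12.58, 13.48 and 12.95 in chaperone-high cows, against 11.01, 12.28, 12.85 and 11.54 in chaperone-low cows, a difference of 1.02 ± 0.39 (SE) with an adjusted p of 0.563. HSPH1 was 11.07, 9.82, 10.60 and 10.93 in chaperone-high cows, against 10.10, 10.70, 10.82 and 11.14 in chaperone-low cows, a difference of -0.08 ± 0.32. HSPA8 differed by -0.20 ± 0.30. The differences without high gain cow 4 were 0.71 for DNAJB4, -0.28 for HSPH1 and -0.49 for HSPA8. All 3 score genes overlapped between the groups, and neither HSPH1 nor HSPA8 was higher on average in cows that had been chaperone-high.

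No gene (0%) of 14198 passed limma's test at an adjusted p under 0.05 in this comparison, the lowest being 0.181. At an unadjusted p under 0.05 there were 1219 genes (8.59%), 746 higher (5.25%) and 473 lower (3.33%) in chaperone-high cows. Without high gain cow 4 these were 584 (4.11%) and 490 (3.45%).

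MYL6B and RCAN1 were among the 5 named genes with the smallest p for higher values in chaperone-high cows. MYL6B, a myosin light chain of slow muscle, was 18.54, 18.02, 18.62 and 15.45 in chaperone-high cows, against 10.34, 13.01, 13.03 and 10.43 in chaperone-low cows, a difference of 5.95 ± 0.86 with an adjusted p of 0.209. RCAN1, an inhibitor and target of calcineurin, was 15.87, 14.24, 14.34 and 12.59 in chaperone-high cows, against 10.69, 10.35, 10.68 and 10.17 in chaperone-low cows, a difference of 3.79 ± 0.57 with the same adjusted p. Both genes were apart between the groups at biopsy 2, and without high gain cow 4 their differences were 5.50 and 3.86. At biopsy 1 they had overlapped, with differences of 1.92 for MYL6B and 3.19 for RCAN1.

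ABHD2, a lipid hydrolase, was 11.42, 11.53, 11.61 and 11.21 in chaperone-high cows, against 9.72, 9.89, 10.23 and 9.62 in chaperone-low cows, a difference of 1.58 ± 0.19 with an adjusted p of 0.181. MYBPH, a myosin-binding protein, differed by -2.08 ± 0.38 (adjusted p of 0.290), NPNT, the integrin ligand nephronectin, by -1.01 ± 0.14 (0.209), and RXRG, a retinoid X receptor, by -1.07 ± 0.19 (0.271). Without high gain cow 4 the differences were 1.53 for ABHD2, -1.99 for MYBPH, -1.04 for NPNT and -1.08 for RXRG. The groups were apart for ABHD2, but none of the 4 genes passed the test.

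Slow fibre markers were higher in chaperone-high cows in 8 of 11 genes at an unadjusted p under 0.05, with a median difference of 1.30, and in 7 without high gain cow 4, with a median of 0.92. MYOZ2, a Z-disc protein of slow fibres, differed by 2.47 ± 0.75, with an adjusted p of 0.500, and by 1.86 without high gain cow 4. Mitochondrial genes were higher in 8 of 22 with or without that array. Lipid synthesis genes were lower in 10 of 15 with or without it, with medians of -3.02 and -2.06, and adipocyte markers in 7 of 12, with medians of -2.19 and -1.19. Over all genes 5.25% were higher and 3.33% lower at this limit, and 4.11% and 3.45% without that array. At biopsy 1 the medians were 0.13 for slow fibre markers, -0.14 for mitochondrial genes, 0.13 for lipid synthesis and 0.54 for adipocyte markers, and no member of the 4 lists was set apart.

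Some genes set apart at biopsy 1 kept their direction in the same cows at biopsy 2. CSRP3 was 17.59, 17.81, 18.17 and 15.48 in chaperone-high cows, against 13.33, 16.11, 15.51 and 11.48 in chaperone-low cows, a difference of 3.15 ± 0.99 with an adjusted p of 0.512. LMOD2 was 16.88, 17.55, 17.51 and 15.79 in chaperone-high cows, against 13.40, 15.13, 15.87 and 14.43 in chaperone-low cows, a difference of 2.22 ± 0.55 with an adjusted p of 0.485. CSRP3 and LMOD2 differed by 2.89 and 1.79 without high gain cow 4. In both genes high gain cow 3 was the chaperone-high cow that overlapped with the chaperone-low cows.

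The linker histones H1-4 and H1-2 were again apart. H1-4 was 11.26, 11.90, 11.36 and 11.45 in chaperone-high cows, against 12.47, 13.05, 12.61 and 13.48 in chaperone-low cows, a difference of -1.41 ± 0.27 with an adjusted p of 0.313. H1-2 was 8.30, 8.26, 9.19 and 8.59 in chaperone-high cows, against 9.39, 9.65, 10.03 and 9.83 in chaperone-low cows, a difference of -1.14 ± 0.23 with an adjusted p of 0.350. H1-4 and H1-2 differed by -1.56 and -1.25 without high gain cow 4. Over the 22 genes set apart downward at biopsy 1 the median difference was -0.38, with 2 lower and 0 higher at an unadjusted p under 0.05, and without high gain cow 4 it was -0.56, with 10 lower. The shares of all genes were 5.25% higher and 3.33% lower, and 4.11% and 3.45% without that array. Over the 120 set apart upward the median was 0.12, with 23 higher and 8 lower, and NR4A3, GLUL and NFIL3 differed by 0.33 ± 1.02, -0.16 ± 0.37 and -0.06 ± 0.38. For these 3 genes the sign turned without high gain cow 4, with differences of -0.03, 0.14 and 0.39.

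**Figure D5:**
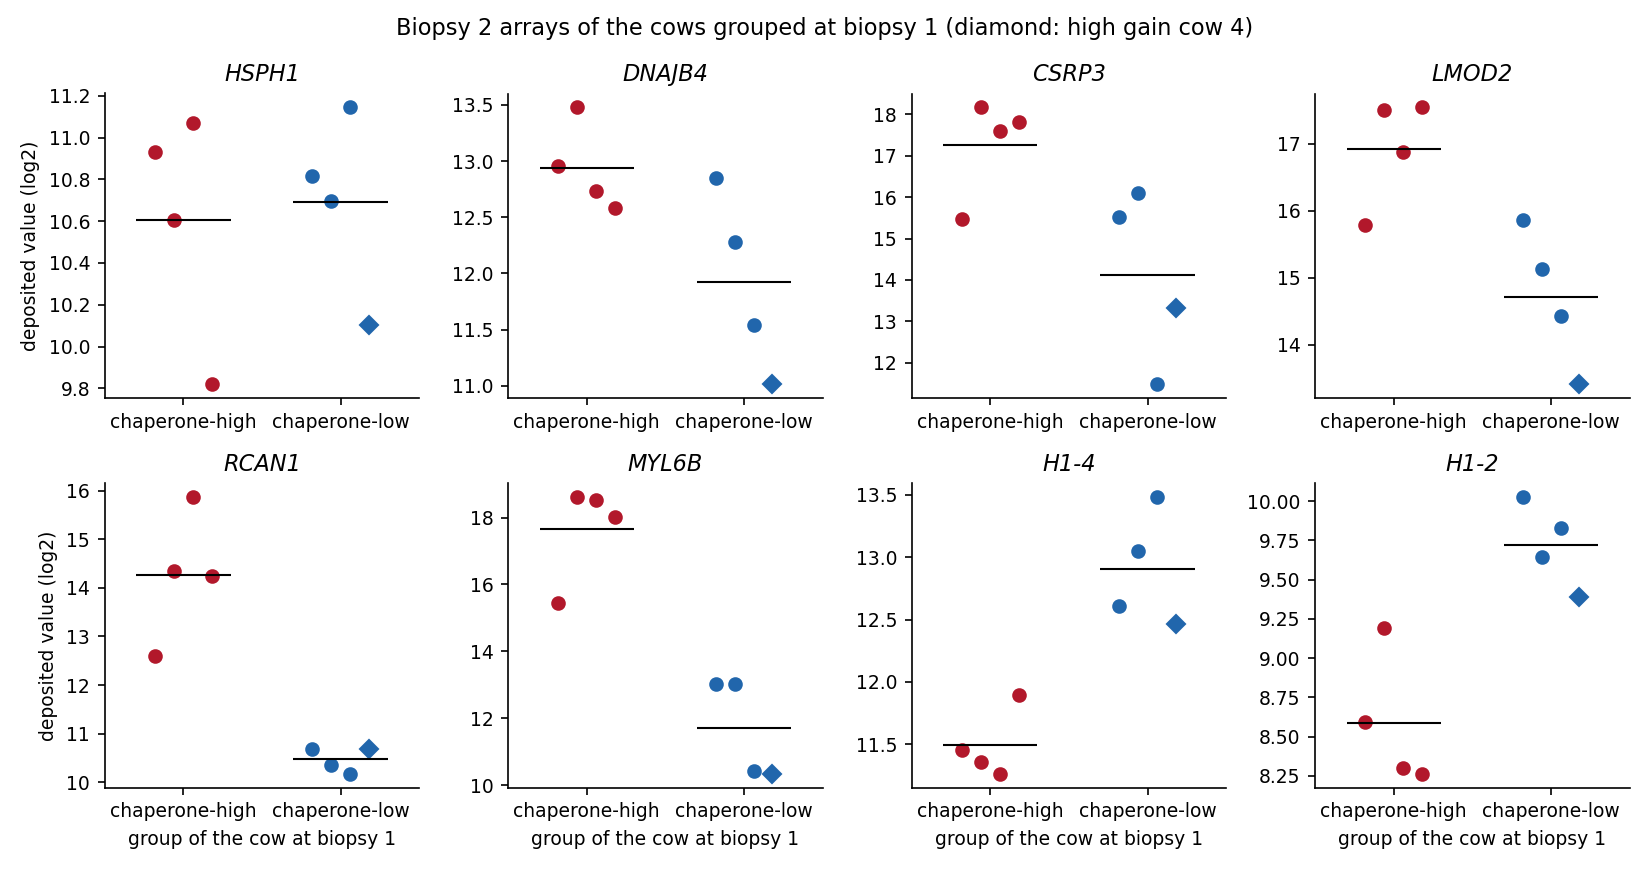
Deposited log2 values (vertical axes) of 8 genes on the biopsy 2 arrays of the 4 cows that were chaperone-high and the 4 that were chaperone-low at biopsy 1, with 1 point per cow and lines at group means; the diamond is high gain cow 4. RCAN1, MYL6B, H1-4 and H1-2 do not overlap between the groups, while the HSPH1 points are mixed, at means of 10.6 and 10.7.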

How the data were processed

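Muscle RNA from 24 biopsies was extracted with TriPure and hybridised as biotin-labelled cRNA, per the labels' protocols. Per the submitters' processing notes, the tools were Affymetrix Expression Console and Transcriptome Analysis Console, with no version or normalization stated. The authors deposited a single table of log values for 26773 features, read as log2 because of their range, with no base stated. Biopsies 1 and 2 appeared to have been normalized separately, so all comparisons stay within a biopsy and use the values as deposited.

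The 18790 features paired with 1 gene by the platform annotation were used, with the brightest feature per gene, and a gene had to average at least 6.76, the 25th percentile over features, which 14198 of 18444 did. Tests at biopsy 2 and of gain class used limma 3.58.1 under R 4.3.3 (lmFit, then eBayes with a trend, and Benjamini-Hochberg adjustment over all genes tested, threshold 0.05), and SEs are limma's moderated values. The slope left out the 3 score genes. The limma fits were tested on simulated data with known changes. Cow numbers within a gain class follow the order of the samples, and the animal number in the titles pairs the 2 arrays of a cow.

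The groups, the 30 gene lists (19 of pathways, 11 of cell type markers) and the tests were chosen with earlier results of these data known. Genes named were the score genes, the 15 largest differences each way among genes set apart, every list member set apart or else its 2 largest differences, and the smallest p at biopsy 2, 10 each way for the slope and 5 each way for the cows. LOC symbols and names that are only accessions, clones or open reading frames were skipped, a part of the genes so named is given, and others are said to be chosen after their values were seen. The result of 1 pathway list is not reported here. Alternatives varied the normalization, filter, features, group size, score genes, gain covariate and each array.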

Additional observations from a re-analysis of the deposited data

Results flagged for a closer look

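In 3 genes 1 chaperone-low array lay far from the other 3 at biopsy 1, by the gap to its neighbour over the range of the group. GABARAPL1 was 9.17 in low gain cow 2, against 10.55 to 10.79 in the others. PRKAG3 was 11.58 in high gain cow 4, against 12.57 to 12.61 in the others. HSF2 was 11.06 in high gain cow 4, against 10.48 to 10.56 in the others. The chaperone-low values of PRKAG3 and HSF2 in high gain cow 4, the chaperone-low array of highest score, lay nearest to the chaperone-high arrays. A group of 4 passes this limit by chance now and then, so a few such genes are to be met among all those named.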

How the results depend on the processing

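The counts at biopsy 1 (120 higher, 22 lower) depended on which arrays formed the groups. The 3 highest against the 3 lowest arrays gave 445 and 110, the 5 against the 5 gave 25 and 1, HSPH1 alone as the score gave 69 and 11, and HSPA8 alone 18 and 5. The lower count was 39 after quantile normalization, 9 with all 12 arrays ranked and 40 with gain class as a covariate. Leaving out 1 array gave 112 to 291 higher and 17 to 74 lower genes, with 291 and 74 when high gain cow 3 was left out, 255 and 49 for high gain cow 4, and 195 and 40 for high gain cow 5. There were 3 alternatives chosen after seeing the data: leaving out the 2 arrays of highest score gave 76 higher genes, DCN as a covariate 52 and 8, and leaving out high gain cow 4 left the slope at biopsy 2 with 0. The slope gave 1 and 2 calls after quantile normalization, 222 and 733 with gain class as a covariate, and 0 to 492 upward and 0 to 958 downward without 1 array, the most without high gain cow 1, and 1 and 1 without low gain cow 5 and 1 upward without low gain cow 6. The comparison of cows at biopsy 2 and that of gain class gave 0 adjusted calls in every alternative run. Among genes set apart, the difference with HSPA8 alone as the score changed sign for CCN2 (-0.26), FSTL1 (-0.053), LMOD2 (-0.40), CILP (0.23), ASB16 (0.31), NEPN (0.11) and CD82 (0.0010). With 12 arrays ranked it changed sign for MYOZ3 (0.19) and ASB14 (0.31). By construction the score, group size and left-out array settings change which arrays are compared, and for the others the cause was not tested. Of 2354 values of single genes under the alternatives, 2186 kept their direction and their side of the threshold or stayed within the replicate spread. A further 113 moved further, 46 newly passed the threshold and 9, those listed above, changed sign. At biopsy 1 a change of sign was counted as such only for genes set apart, HSPH1 and DNAJB4. Other genes that changed sign there were counted by size alone. With DCN as a covariate, for example, ADIPOQ went from 2.17 to -1.97 and FABP4 from 2.06 to -3.10. No paired analysis was possible because the groups compared hold different cows.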
